A study of Mus musculus with 12 samples.

Results

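The 9 genes described here encode subunits of the voltage-gated potassium channels of the heart: *Kcnd2*, *Kcnd3*, *Kcnip2*, *Kcna4*, *Kcna5*, *Kcnq1*, *Kcne1*, *Kcnh2* and *Kcnv2*. They were chosen by name, as the genes of the main repolarizing currents, and matched by symbol to Ensembl identifiers, and all 9 were found among the 48526 genes counted in every library. The libraries came from adult mice that all carried the *Cntn2*-EGFP BAC reporter, in which GFP marks the Purkinje cells (PCs) of the ventricular conduction system. Genotype was either *Ncam-1* WT or *Ncam-1* KO (*Ncam-1*-/-, lacking the neural cell adhesion molecule). Ventricular cells were stained with 50 nM TMRM, a mitochondrial dye that labels cardiomyocytes, and sorted into PCs (RFP+GFP+) and ventricular myocytes (VMs, RFP+GFP-), with 3 libraries for each cell type and genotype. Among TMRM-positive cells only the reporter separates PCs from VMs. The reporter was kept on a CD1 background and the *Ncam-1*-/- line on C57BL/6, and the sources used here do not say how many hearts went into a library.

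Voltage-gated potassium channels open as the myocyte depolarizes, and the outward current they carry ends the action potential. A pore-forming alpha subunit sets the type of current, and small accessory subunits change how much channel reaches the membrane and how fast it opens and closes. In the mouse ventricle the fast transient outward current, carried by *Kcnd2* and *Kcnd3* products with the calcium-binding partner encoded by *Kcnip2*, dominates early repolarization. The slow and rapid delayed rectifiers (*KCNQ1* with *KCNE1*, and *KCNH2*) are best known from human hearts and the long QT syndromes, and are small in adult mouse ventricle.

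The stretch of coding sequence around the pore is shown for 6 members that form pores or belong to a pore-forming family, because its likeness bears on whether reads of 50 bases can be given to one gene. Each line runs 5′ to 3′ on the coding strand of a transcript in GENCODE release M21 (GRCm38), and the capitals mark the 5 codons of the selectivity filter, through which potassium passes.
Kcnd2: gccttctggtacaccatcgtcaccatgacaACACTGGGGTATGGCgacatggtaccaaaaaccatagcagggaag
Kcna4: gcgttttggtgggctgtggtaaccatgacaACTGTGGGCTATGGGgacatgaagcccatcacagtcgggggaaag
Kcna5: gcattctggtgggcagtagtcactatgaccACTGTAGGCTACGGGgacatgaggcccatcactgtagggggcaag
Kcnq1: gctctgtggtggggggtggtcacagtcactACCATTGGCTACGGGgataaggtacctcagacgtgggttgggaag
Kcnh2: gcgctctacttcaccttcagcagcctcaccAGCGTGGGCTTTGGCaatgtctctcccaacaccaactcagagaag
Kcnv2: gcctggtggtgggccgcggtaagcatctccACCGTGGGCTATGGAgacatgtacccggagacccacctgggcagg

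Among the 6 sequences shown, identity over these 75 bases ran from 45.3% (*Kcnq1* and *Kcnh2*) to 82.7% (*Kcna4* and *Kcna5*). Over their annotated transcripts, *Kcnd2*, *Kcnip2*, *Kcna4*, *Kcne1*, *Kcnh2* and *Kcnv2* shared none of their 50-base windows with another gene. *Kcna5* shared 79 of 2813 windows with *Kcna6*, *Kcnd3* shared 117 of 9680 with its antisense gene *Kcnd3os*, and *Kcnq1* shared 79 of 4067 with the antisense *Kcnq1ot1*. The counting is not stated to use strand, so reads in the antisense overlaps of *Kcnd3* and *Kcnq1* cannot be told apart. Reads within the windows that *Kcna5* shares with *Kcna6* match both genes whatever the strand. *Kcnq1ot1* held 3687 counts over the 12 libraries, against 766 for *Kcnq1*, and overlapped 121 of its 4093 exonic bases.

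Before the members, the libraries: counts outside the mitochondrial genome ran from 1532393 to 6761356 per library. *Ncam1* had 83, 34 and 116 counts in WT PCs and at most 1 in a KO library, and *Cntn2* had 231 to 922 counts in WT PCs and at most 7 in any VM library. In KO PC replicates 1 and 2, *Cntn2* had only 22 and 39 counts, against 677 in replicate 3. The summed normalized count of 8 PC markers, *Cntn2* among them, was 316, 261 and 1071 in KO PC replicates 1, 2 and 3. It ran from 640 to 1419 in WT PCs, from 72.5 to 102 in WT VMs and from 136 to 186 in KO VMs. Comparisons that use KO PCs are limited by this. In WT PC replicate 2, 63.94% of read pairs were not aligned, where the other 11 libraries ran from 18.8% to 24.7%. Several results below are also given without one or more of these 3 libraries. The summed normalized count of 7 myocyte markers ran from 145541 to 173137 in PC libraries and from 142894 to 193020 in VM libraries, and those of neurons and Schwann cells were at most 10.4, with *Sox10*, *Prph*, *Tubb3* and *Th* at 0 in every library. Here and below, a normalized count is a raw count divided by the library's effective size (TMM), scaled to a typical library of the 12.

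Ordered by level per kilobase of exon, the only scale on which genes were compared with each other, *Kcnip2* came first in all 4 groups and *Kcna5* last. The level of *Kcnip2* was 63.2 ± 14.3 normalized counts per kilobase in WT PCs, 53.5 ± 10.8 in KO PCs, 65.6 ± 7.75 in WT VMs and 62.5 ± 20.7 in KO VMs (SD, n = 3 each). In VMs *Kcnd2* came second, at 39.6 ± 1.02 per kilobase in WT and 46.6 ± 8.60 in KO (SD, n = 3), above *Kcnh2* at 19.1 ± 4.25 and 20.3 ± 3.57 without overlap between libraries. In KO VMs the ranges of *Kcnip2* and *Kcnd2* overlapped, and in the other groups *Kcnip2* stood clear of the next gene. In PCs there was no such gap below *Kcnd2*. *Kcnd2* (32.3 ± 6.24 per kilobase in WT, 26.4 ± 5.42 in KO), *Kcne1* (29.8 ± 5.20 and 28.1 ± 13.8) and *Kcnh2* (21.4 ± 9.54 and 27.4 ± 2.28) overlapped with one another in both genotypes (SD, n = 3 each). *Kcnq1*, *Kcnd3* and *Kcnv2* had mean levels between 7.16 and 19.6 per kilobase and overlapped with one another in every group, except that *Kcnq1* stood above *Kcnd3* in KO PCs. In VMs *Kcne1* lay among them, at 12.03 per kilobase in WT and 11.97 in KO. *Kcna4* (means of 3.07 to 3.84 per kilobase) and *Kcna5* (0.610 to 2.79) stood at the bottom in every group. *Kcnd3* and *Kcna4* did not overlap in VMs, but did in KO PCs, where *Kcnd3* was next above *Kcna4*.

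**Figure D1:**
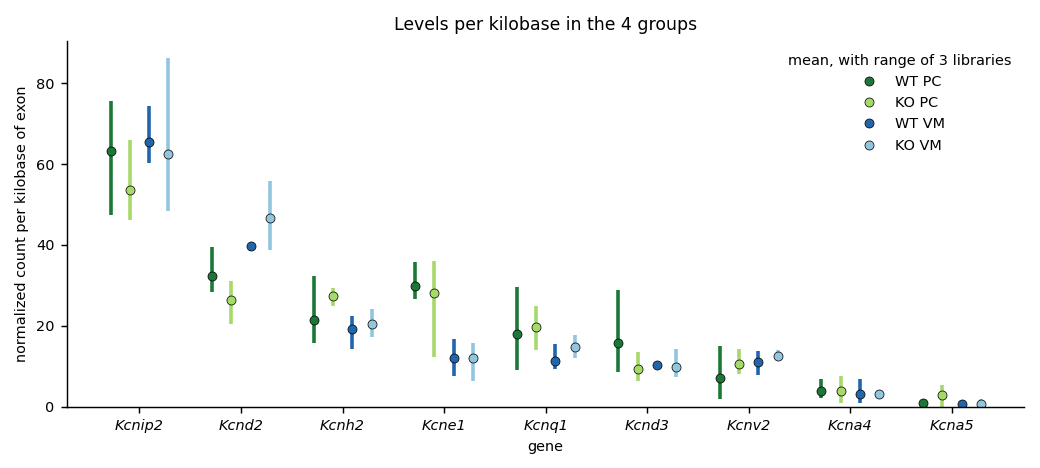
Levels of the 9 genes in normalized counts per kilobase of exon (vertical axis), by gene (horizontal axis, ordered by the mean over 12 libraries). Points are means of 3 libraries and lines run from the lowest to the highest library, with dark and light green for WT and KO PCs and dark and light blue for WT and KO VMs. *Kcnip2* is highest in every group, *Kcne1* lies at 28.1 or 29.8 per kilobase in PCs and near the lower members in VMs, and *Kcna5* lies near 0.

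The first question was whether these genes differ between PCs and VMs, cells whose action potentials differ in shape and length. Over all 12 libraries with genotype as a term, 8 of the 9 genes were tested, *Kcna5* being too low, and none passed an adjusted p of 0.05, where 1.28% of the 11323 genes tested did. At an unadjusted p under 0.05, *Kcne1* was higher and *Kcnd2* lower in PCs, 2 of 8 members against 11.7% of all genes tested. The 8 members had a median log2 fold change of 0.28 (PC over VM), and that of all genes tested was 0.02. In WT alone 1 of 8 members (*Kcne1*) had an unadjusted p under 0.05, where the share of all genes was 6.36%, and in KO 2 of 8 (*Kcne1* and *Kcnd2*), where it was 9.7%. By the adjusted p no member was called in either genotype, against 0.11% of genes in WT and 0.872% in KO.

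*Kcne1* (chromosome 16, 92345982 to 92359468, minus strand) encodes a small membrane protein with a single span, the accessory subunit that slows and enlarges the current of the *Kcnq1* channel. Its normalized counts were 86.3, 85.8 and 115 in WT PCs and 37.5, 24.5 and 54.0 in WT VMs. In KO PCs they were 116, 39.1 and 116, and in KO VMs 50.9, 20.5 and 44.0. All WT PC libraries lay above all WT VM libraries, as did 7.29% of all genes tested in that comparison, whereas in KO the second PC library lay among the VM libraries. The raw counts behind these values ran from 31 to 199 in PCs and from 16 to 73 in VMs.

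Over both genotypes *Kcne1* was 2.41-fold higher in PCs, with a log2 fold change of 1.27 ± 0.30 (SE), an interval of 0.63 to 1.91 at 95% confidence and an adjusted p of 0.0508 by edgeR's quasi-likelihood test. The unadjusted p was 0.000664, and a two-sided exact permutation test that relabelled libraries within each genotype gave p = 0.015, where 0.005 is the smallest it can give. The differences in WT (log2 1.27 ± 0.40 SE, adjusted p = 0.604) and in KO (log2 1.23 ± 0.41 SE, adjusted p = 0.222) were of like size. The exact permutation p was 0.1 within WT, the smallest that 3 libraries against 3 allow, and 0.3 within KO. The adjusted value sits at the threshold, and 6 of 7 other settings put *Kcne1* past it. Their adjusted p lay between 0.000619 (no filter on low counts) and 0.0493, which came from the same fit with the filter set on another scale. Not all 7 settings were planned, that scale and the joint omissions of libraries being later additions. More genes of all kinds were called with no filter (592) and DESeq2's Wald test (458) than in the main fit (145), and fewer with the replicate block (98). When single libraries were left out, *Kcne1* passed in 2 of 12 fits and the adjusted p ran from 0.00908 (without WT PC replicate 2) to 0.148 (without WT VM replicate 2). Without WT PC replicate 2 and KO PC replicates 1 and 2 together the log2 fold change was 1.45, and it lay between 1.14 and 1.43 when each library was left out in turn.

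**Figure D2:**
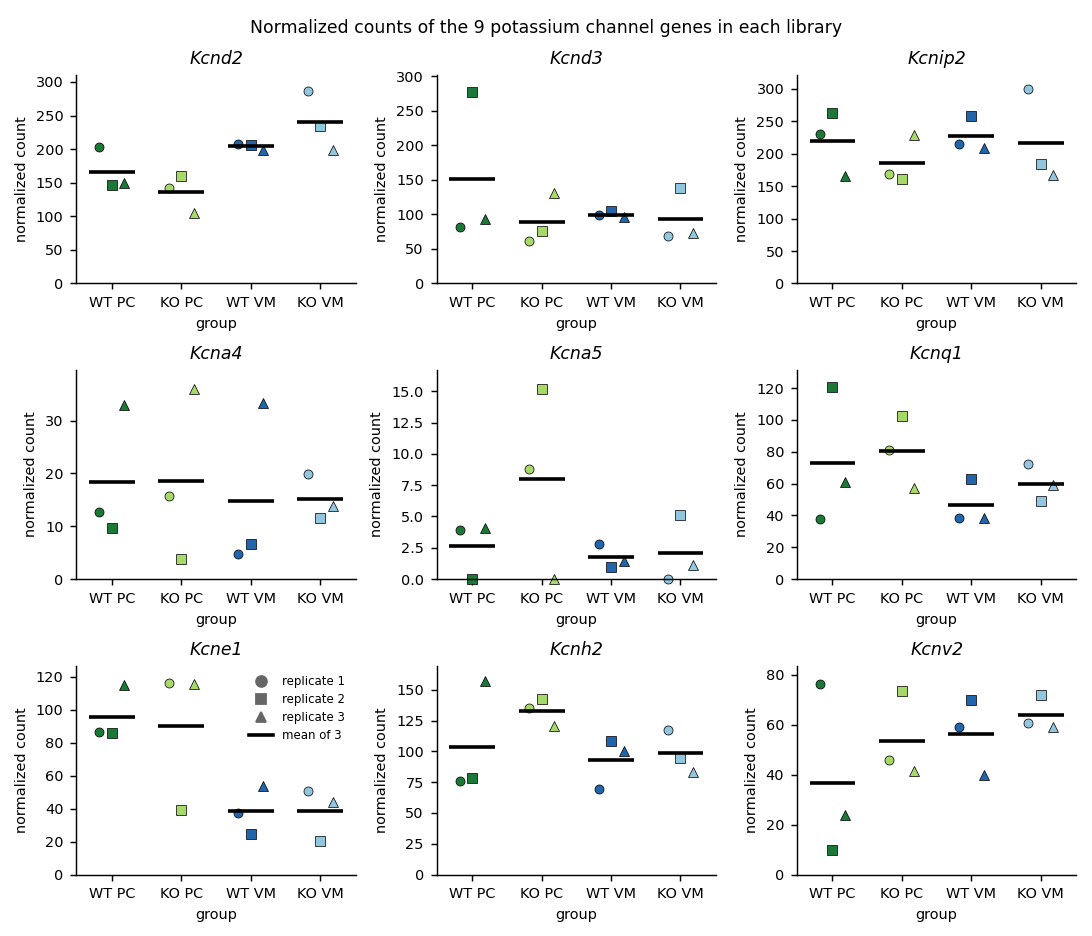
Normalized counts (vertical axes, each from 0) of the 9 genes in the 12 libraries, by group (horizontal axes). Circles, squares and triangles are replicates 1, 2 and 3 and bars their mean. For *Kcne1*, 5 of 6 PC libraries lie above every VM library, for *Kcnd2* 5 of 6 PC libraries lie below every VM library, and for *Kcnd3* the WT PC library at 277 stands apart from the other 2 at 82.4 and 93.6.

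*Kcnd2* (chromosome 6, 21215503 to 21729805, plus strand) encodes the main pore-forming subunit of the fast transient outward current in rodent ventricle. Its normalized counts were 204, 146 and 150 in WT PCs and 208, 206 and 198 in WT VMs. In KO PCs they were 142, 160 and 106, and in KO VMs 287, 234 and 199. Of the 6 PC libraries, 5 lay below every VM library, the exception being WT PC replicate 1. In KO the groups did not overlap, as was the case with PCs lower for 6.92% of all genes tested.

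Over both genotypes *Kcnd2* had a log2 fold change of -0.55 ± 0.17 (SE) in PCs, an unadjusted p of 0.00547 and an adjusted p of 0.144, so it did not pass the adjustment. The exact permutation test within genotypes gave p = 0.01 (two-sided). In KO the log2 fold change was -0.83 ± 0.21 (SE, adjusted p = 0.0911), a level 1.78-fold lower in KO PCs. In WT it was -0.32 ± 0.25 (SE, adjusted p = 0.842). The adjusted p in KO fell to 0.00892 with no filter on low counts and to 0.0297 with a block on replicate number, and lay between 0.11 and 0.359 when each library was left out. Without KO PC replicates 1 and 2 the log2 fold change in KO was -1.18. That value rests on KO PC replicate 3 alone, which had the lowest *Kcnd2* count of all libraries.

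*Kcnd3* (chromosome 3, 105452330 to 105674002, plus strand) encodes a second pore-forming subunit of the same current. Its normalized counts were 82.4, 277 and 93.6 in WT PCs, 61.5, 75.8 and 130 in KO PCs, 98.5, 104 and 96.1 in WT VMs and 69.3, 137 and 72.9 in KO VMs. The highest value belongs to WT PC replicate 2, the library with most unaligned pairs. PCs and VMs differed by a log2 fold change of 0.26 ± 0.31 (SE, adjusted p = 0.817), and without that library the value was -0.10.

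*Kcnip2* (chromosome 19, 45791839 to 45816061, minus strand) encodes the calcium-binding subunit without which the fast transient outward current is lost in mouse ventricle. It had 230, 263 and 165 normalized counts in the WT PC libraries, 169, 160 and 229 in KO PCs, 216, 259 and 209 in WT VMs and 300, 184 and 168 in KO VMs. The 4 groups overlapped, and the PC over VM log2 fold change was -0.14 (95% interval -0.52 to 0.24, adjusted p = 0.842). Of the 9 genes it had the smallest spread over the 12 libraries, with a coefficient of variation of 21.3%.

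Ratios taken within a library do not depend on its scaling. The ratio of *Kcnip2* to *Kcnd2* plus *Kcnd3*, in levels per kilobase, was 1.31 ± 0.0768 in WT PCs, 1.51 ± 0.384 in KO PCs, 1.31 ± 0.133 in WT VMs and 1.10 ± 0.247 in KO VMs (SD, n = 3 each). All 12 libraries lay between 0.885 and 1.93, with each group overlapping the others. *Kcnd2* exceeded *Kcnd3* per kilobase in every library but 1, with a ratio of 3.67 to 3.93 in WT VMs, 3.17 to 7.71 in KO VMs and 1.51 to 4.31 in KO PCs. In WT PCs it was 4.60, 0.983 and 2.98, the lowest being that of replicate 2.

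**Figure D3:**
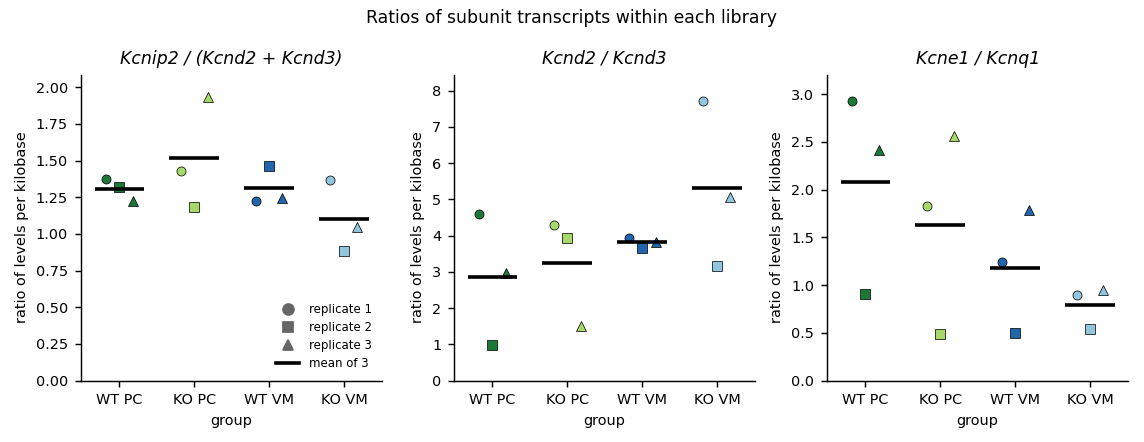
Ratios of levels per kilobase (vertical axes, from 0) within each library, by group (horizontal axes), with circles, squares and triangles for replicates 1, 2 and 3 and bars for the mean of 3. *Kcnip2* over *Kcnd2* plus *Kcnd3* stays between 0.885 and 1.93, *Kcnd2* over *Kcnd3* runs from 0.983 to 7.71, and *Kcne1* over *Kcnq1* from 0.487 to 2.93.

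*Kcnq1* (chromosome 7, 143106362 to 143427042, plus strand) encodes the pore-forming partner of the *Kcne1* product. It had 37.5, 121 and 60.7 normalized counts in the WT PC libraries, 80.9, 102 and 57.5 in KO PCs, 38.4, 63.1 and 38.5 in WT VMs and 72.1, 48.8 and 59.0 in KO VMs. The PC over VM log2 fold change was 0.50 ± 0.28 (SE, adjusted p = 0.528). It was 0.25 without WT PC replicate 2, which held the highest value, and 0.02 without that library and KO PC replicates 1 and 2. The ratio of *Kcne1* to *Kcnq1*, in levels per kilobase, was 2.93, 0.904 and 2.41 in WT PCs, 1.83, 0.487 and 2.56 in KO PCs, 1.24, 0.494 and 1.79 in WT VMs and 0.899, 0.536 and 0.949 in KO VMs. In each group the replicate numbered 2 had the lowest ratio.

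*Kcnh2* (chromosome 5, 24319589 to 24351604, minus strand) encodes the pore of the rapid delayed rectifier. Its normalized counts were 76.3, 78.0 and 157 in WT PCs, 135, 143 and 121 in KO PCs, 69.4, 108 and 101 in WT VMs and 117, 95.02 and 83.4 in KO VMs. In KO all PC libraries lay above all VM libraries, as did 8.66% of genes tested, with a log2 fold change of 0.43 ± 0.22 (SE, adjusted p = 0.577). Without KO PC replicates 1 and 2, which leaves only 1 KO PC library, the log2 fold change was 0.30. Over both genotypes it was 0.30 ± 0.21 (SE, adjusted p = 0.644), and WT PCs and VMs overlapped.

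*Kcnv2* (chromosome 19, 27322588 to 27337179, plus strand) encodes a silent subunit, which forms no channel alone and modifies the channels it joins. It had 76.3, 9.75 and 23.7 normalized counts in the WT PC libraries, the widest range of any group for this gene, with only 5 raw counts in replicate 2. KO PCs had 45.7, 73.2 and 41.4, WT VMs 59.1, 69.6 and 39.9, and KO VMs 60.8, 71.9 and 59.0. The PC over VM log2 fold change was -0.40 ± 0.35 (SE, adjusted p = 0.738), and it lay between -0.85 without WT PC replicate 1 and -0.21 without WT PC replicate 2. Without WT PC replicate 1 the unadjusted p of *Kcnv2* was 0.0237 and that of *Kcnq1* 0.035.

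*Kcna4* (chromosome 2, 107290639 to 107298502, plus strand) encodes the pore of the slow transient outward current, which in mice is prominent in the septum. It had 12.6, 9.75 and 32.9 normalized counts in the WT PC libraries, 15.8, 3.79 and 36.1 in KO PCs, 4.69, 6.59 and 33.3 in WT VMs and 19.8, 11.6 and 13.9 in KO VMs. In 3 of the 4 groups replicate 3 was highest. The 12 libraries held 249 raw counts in all, and the PC over VM log2 fold change of 0.34 had an interval from -0.82 to 1.504. Its direction was thus unresolved, and without KO PC replicate 3 the estimate was -0.08.

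*Kcna5* (chromosome 6, 126532551 to 126535412, minus strand) encodes a pore of the ultrarapid delayed rectifier, a steady outward current of mouse myocytes. Only 44 raw counts were assigned to it over the 12 libraries. They numbered 9, 0 and 7 in WT PCs, 5, 12 and 0 in KO PCs, 3, 1 and 2 in WT VMs and 0, 4 and 1 in KO VMs. With 7 of 12 libraries at 3 or fewer counts, 3 of them at 0, no difference between PCs and VMs was detectable at this depth.

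Other markers moved with cell type and stand beside these differences. The summed normalized count of 7 fibroblast markers, all of them detected in every group, ran from 665 to 1676 in PC libraries and from 72.1 to 420 in VM libraries. That of 7 endothelial markers ran from 489 to 1589 and from 69.3 to 520, and that of 7 leukocyte markers from 227 to 585 and from 9.90 to 125, with *Cd3e* at 0 in both KO groups and *Cd79a* at 0 in both VM groups. The sums for 7 smooth muscle and pericyte markers overlapped, at 4005 to 6681 in PCs and 4279 to 4949 in VMs, but most of each sum was *Abcc9*, which encodes a potassium channel subunit that cardiomyocytes also express. Without it the other 6 markers summed to 988 to 2431 in PC libraries and 246 to 967 in VM libraries, which did not overlap. Their part in the *Kcne1* and *Kcnd2* differences was not tested, and in bulk libraries fewer cells of a type and less RNA per cell cannot be told apart. In KO PC replicates 1, 2 and 3, which had 38.67, 49.2 and 452 normalized counts of *Cntn2*, those of *Kcne1* were 116, 39.1 and 116.

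The second question was whether the loss of *Ncam-1* altered these genes. No member was called between KO and WT PCs at an adjusted or unadjusted p under 0.05, among 9 tested, and over all 11754 genes the shares were 0% and 3.22% by edgeR. DESeq2's Wald test also called no member. The largest fold was that of *Kcna5*, a log2 difference of 1.32 with an interval from -1.85 to 4.49, resting on 17 counts in KO PCs and 16 in WT PCs. *Kcna5* passed the low-count filter here only through the KO PCs, where its mean was 7.98 normalized counts, against 2.66 in WT PCs. In no other comparison did it pass, so its direction here is no support for a difference. The log2 fold change of *Kcnd3* was -0.70 (interval -1.83 to 0.43), and it was 0.05 without WT PC replicate 2. The narrowest intervals were those of *Kcnip2*, -0.88 to 0.43 (estimate -0.22), *Kcnd2*, -0.98 to 0.38 (estimate -0.30), and *Kcnh2*, -0.47 to 1.16 (estimate 0.34). *Kcne1* had an interval from -1.07 to 0.89 (estimate -0.09). The log2 fold change of *Kcnv2* was 0.48, of *Kcnq1* 0.17 and of *Kcna4* 0.02, each with an interval that held 0. In none of the 9 genes did the libraries of KO and WT PCs separate, as they did for 9.52% of genes tested.

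Between KO and WT VMs, 8 members were tested and none was called at either threshold, where the shares of all 10737 genes were 0.0373% by adjusted and 5.12% by unadjusted p. Again DESeq2 called none of them. For each of these 8 members the interval was narrower than that between KO and WT PCs. The log2 fold change of *Kcnd2* was 0.22 (interval -0.14 to 0.59), of *Kcnip2* -0.08 (-0.52 to 0.36), of *Kcnd3* -0.10 (-0.63 to 0.42), of *Kcnh2* 0.07 (-0.41 to 0.55), of *Kcnq1* 0.36 (-0.23 to 0.95) and of *Kcnv2* 0.19 (-0.36 to 0.73). *Kcne1*, at 38.66 ± 14.8 normalized counts in WT VMs and 38.5 ± 15.9 in KO VMs (SD, n = 3), had a log2 fold change of -0.03 with an interval from -0.81 to 0.74. *Kcna4* had -0.05 with an interval from -1.35 to 1.25, and 1.40 when WT VM replicate 3, the library with 45 of its 57 counts in WT VMs, was left out. No member's libraries separated by genotype in VMs, against 9.63% of genes tested.

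**Figure D4:**
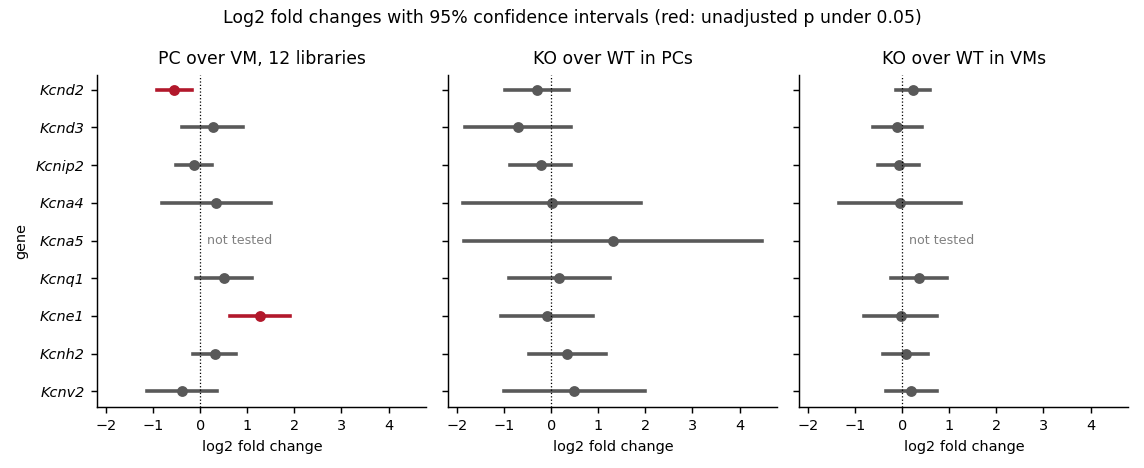
Log2 fold changes (horizontal axes) of the 9 genes (vertical axis) for PC over VM in 12 libraries, KO over WT in PCs and KO over WT in VMs, with lines for the 95% confidence interval of edgeR's quasi-likelihood fit. Red marks an unadjusted p under 0.05, which *Kcne1* (1.27) and *Kcnd2* (-0.55) reached for PC over VM and no gene reached between genotypes.

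The genotype effect was also compared between PCs and VMs in 1 fit of all libraries. None of 8 members passed either threshold, where 0% of 11323 genes did by adjusted and 2.9% by unadjusted p. The difference farthest from 0 relative to its error was that of *Kcnd2*, whose genotype effect was lower in PCs than in VMs by 0.54 on the log2 scale (SE 0.33, adjusted p = 0.999). For *Kcne1* the difference was -0.07 ± 0.62 (SE). The PC over VM value of *Kcnd2* in KO and that in WT were therefore not shown to differ.

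Of 45 other genes for voltage-gated potassium channels and their accessory subunits, 15 had no count in any library, 24 (those 15 included) had at most 3 in every library, and 6 had a mean normalized count above 5. *Kcng2*, which encodes a silent subunit, had group means from 249 to 277 normalized counts. Per kilobase the level of *Kcng2* was 92.7 ± 12.1 in WT PCs, 89.4 ± 18.9 in KO PCs, 83.4 ± 4.27 in WT VMs and 91.3 ± 3.16 in KO VMs (SD, n = 3 each), means above that of *Kcnip2* in every group. It did not pass an unadjusted p of 0.05 between cell types or genotypes. No gene of this list was called by adjusted p in any comparison. By unadjusted p, *Kcnab1*, a cytoplasmic beta subunit, was higher in PCs over both genotypes (log2 2.91 ± 0.92 SE, adjusted p = 0.152), and in WT alone (log2 3.43, adjusted p = 0.697), with 67, 3 and 5 counts in the WT PC libraries, 11, 1 and 9 in KO PCs and at most 4 in a VM library. *Kcna2* was higher in KO PCs than KO VMs (log2 2.43, adjusted p = 0.496), with 0, 14 and 26 counts in KO PCs and 4, 0 and 1 in KO VMs. In WT its mean normalized counts, 4.68 in PCs and 2.19 in VMs, were too low for a test. *Kcnh7*, a relative of *Kcnh2*, was lower in KO than WT PCs (log2 -3.00, adjusted p = 0.993), with 0, 5 and 1 counts in KO PCs against 14, 23 and 17. *Kcnab1*, *Kcna2* and *Kcnh7* passed the filter on the mean count in these comparisons only through the group where each was high. Their directions follow in part from that filter and are no support for a difference.

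A list of 21 partners and regulators of these channels held 1 gene that passed the adjustment, *Etv1*, a transcription factor of fast-conducting myocytes that also stands in the list of PC markers. *Etv1* rose in PCs by a log2 fold change of 3.14 ± 0.38 (SE, adjusted p = 0.000648) over both genotypes, by 3.56 in WT (adjusted p = 0.0316) and by 2.63 in KO (adjusted p = 0.014). The shares of all genes called were 1.28%, 0.11% and 0.872%. Its normalized counts were 156, 429 and 453 in WT PCs, 105, 55.6 and 258 in KO PCs, and at most 33.8 in a VM library. By median the 20 tested genes of the list differed by -0.02 between PCs and VMs on the log2 scale, where all genes tested had 0.02. In VMs, no gene of the list was called by genotype at the adjusted p. At an unadjusted p under 0.05, which 3 of the 20 genes and 5.12% of all genes had, *Klf15*, a factor known to drive rhythmic *Kcnip2* expression, was higher in KO VMs (log2 0.59, adjusted p = 0.909), *Irx3* was higher (0.98, adjusted p = 0.931) and *Camk2d* lower (-0.35, adjusted p = 0.931). Between KO and WT PCs 2 of the 20 had such a p, against 3.22% of all genes. *Cav3*, the muscle caveolin, was lower in KO PCs (log2 -0.88, adjusted p = 0.993), with 102, 77.0 and 74.2 normalized counts in KO PCs against 155, 185 and 127 in WT PCs. *Etv1* was lower as well by unadjusted p (log2 -1.27, adjusted p = 0.993), the KO PC libraries low in *Cntn2* having the values 105 and 55.6. Without them, which leaves only 1 KO PC library, its log2 fold change was -0.39.

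The genes whose patterns over the 12 libraries were most like those of the members were found by the root-mean-square difference of log2 values centred on each gene's mean, among 8099 genes. For *Kcne1* the nearest was *Egr1*, an immediate early gene, at 0.25, followed by *Ccdc82* at 0.43 and *Eef1a1* at 0.44. For *Kcnd2* they were *Dock5*, *Afg3l2* and *Slc25a46* at 0.19 to 0.20, and for *Kcnip2*, *Pnpla2*, *Flot1* and *Asb2* at 0.15. For *Kcnd3* they were *Fzd5* (0.21), *Plekha8* and *Psmg1*, for *Kcnq1*, *Cst3* (0.22), *Rps13* and *Sdhaf4*, for *Kcnh2*, *Ubb* (0.19), *Apbb2* and *Dusp7*, and for *Kcnv2*, *Tmem144* (0.28), *Prune2* and *Tspan9*. No member was among the 3 nearest of another. *Kcna4* and *Kcna5* could not have been, their means lying below the normalized count of 20 required of a candidate. The libraries share depth and sort, so these are descriptions only.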

How the data were processed

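RNA from the 12 sorted populations was amplified with a low-input kit, and the authors deposited raw HTSeq counts of read pairs per gene after STAR alignment to mm10, 1 file per library, without normalization. Whether counting used strand is not given in the sources used here. Classes of pairs assigned to no gene (40.0% to 73.6% of pairs) entered no test. Groups followed the sample titles, and nothing says that replicates came from separate animals, so p-values measure the spread between these libraries. The members and gene lists were chosen with earlier results of these data known.

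Counts were tested in R 4.3.3 with edgeR 4.0.16 (TMM, glmQLFit, glmQLFTest), on genes with a mean normalized count above 5, with p-values adjusted by Benjamini-Hochberg over every gene tested. Normalized counts were scaled to the geometric mean of the effective library sizes, the arithmetic mean having been tried first. Comparisons of 2 groups used their 6 libraries. Exact permutation tests took log2 of the normalized count plus 2. Exon lengths, positions and sequences came from GENCODE M21 (GRCm38), which matched 48058 of 48526 identifiers. Steps were tested on simulated data. Besides the members, genes of the lists were named at an adjusted p under 0.05 or, where none passed, up to 5 per list and comparison at an unadjusted p under 0.05, with the 3 nearest patterns of each member at or above 50 normalized counts. Alternatives were DESeq2 1.42.0, its size factors, no filter, a replicate block, all libraries in 1 fit, and leaving libraries out. Some genes and sequences are not reported here.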

Additional observations from a re-analysis of the deposited data

How the results depend on the processing

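The direction of the *Kcne1* and *Kcnd2* differences between PCs and VMs held under every alternative run, and the number of members called did not. By adjusted p in PCs against VMs over both genotypes the count was 0, and 1 (*Kcne1*) with DESeq2's Wald test, DESeq2's size factors, no filter on low counts, the filter on the arithmetic scale, the replicate block, and WT PC replicate 2 with KO PC replicates 1 and 2 left out together. The last of these was chosen after seeing the data. The arithmetic scale was tried first, and the choice between it and the geometric scale of the main fit was made with the data seen. With each library left out in turn the count ran from 0 to 1. Over all genes, 145 of 11323 were called in the main fit. There were 458 of 11323 with DESeq2's Wald test, 154 of 11321 with its size factors and 592 of 23366 with no filter. On the arithmetic scale there were 155 of 11533, and with the replicate block 98 of 11323. Without WT PC replicate 2 there were 404 of 11375. In KO PCs against KO VMs the count of members called was 0, and 2 (*Kcne1* and *Kcnd2*) with no filter and 1 (*Kcnd2*) with the replicate block. All genes called went from 94 of 10779 to 326 of 20228 with no filter and 121 of 10779 with the block. At unadjusted p, leaving out each library moved the count of members from 1 to between 0 and 2 in WT PCs against WT VMs (2 without WT PC replicate 1, 0 without WT VM replicate 2). In KO PCs against KO VMs it moved from 2 to between 2 and 3 (3 without KO PC replicate 3 or KO VM replicate 1). Over both genotypes it moved from 2 to between 2 and 4 (4 without WT PC replicate 1). From 0 it moved to between 0 and 1 in KO against WT PCs (1 without WT PC replicate 1). The same held in KO against WT VMs (1 without WT VM replicate 2 or 3). It held too for the difference of genotype effects (1 without WT PC replicate 1 or 2). The number of all genes at such a p moved as well. In WT PCs against WT VMs it went from 752 of 11822 to 1252 of 11452 without WT PC replicate 1. Without WT VM replicate 2 it fell there to 318 of 11921. Without WT PC replicate 1 it went from 1321 of 11323 to 1616 of 11131 over both genotypes. In KO against WT PCs it then went from 378 of 11754 to 879 of 11386. For the difference of genotype effects it went from 328 of 11323 to 841 of 11131, and to 400 of 11375 without WT PC replicate 2. In KO PCs against KO VMs it fell from 1046 of 10779 to 970 of 10434 without KO PC replicate 3. It fell there to 928 of 10938 without KO VM replicate 1. In KO against WT VMs it fell from 550 of 10737 to 498 of 10696 without WT VM replicate 2. Without WT VM replicate 3 it was 507 of 10602.

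Several log2 folds changed sign, none of them called. Over both genotypes, with each library left out, *Kcna4* ran from -0.077 to 0.92 and *Kcnd3* from -0.10 to 0.47 (PC over VM). Between KO and WT PCs the ranges were -1.01 to 0.74 for *Kcna4*, -0.18 to 0.69 for *Kcnq1*, -0.36 to 0.27 for *Kcne1* and -1.14 to 0.046 for *Kcnd3*, the value above 0 being that without WT PC replicate 2. *Kcna4* was -0.00069 with DESeq2's Wald test and -0.17 with the replicate block. Without KO PC replicates 1 and 2 together, added after seeing the data and leaving only 1 KO PC library, *Kcnip2* was 0.091, *Kcnq1* -0.29 and *Kcne1* 0.29. Between KO and WT VMs the ranges were -0.47 to 0.063 for *Kcnd3*, -0.10 to 0.21 for *Kcnh2*, -0.38 to 0.085 for *Kcnip2*, -0.46 to 1.40 for *Kcna4*, -0.27 to 0.31 for *Kcne1* and -0.0060 to 0.39 for *Kcnv2*, and *Kcna4* was 0.0076 with DESeq2's Wald test and 0.31 with the replicate block. The difference of genotype effects for *Kcne1* ran from -0.40 to 0.29 with each library left out, and was 0.31 without KO PC replicates 1 and 2 and 0.23 when WT PC replicate 2 was left out as well. The cause of these shifts was not tested. A further 251 values, for 17 folds not reported, changed sign in 37 cases and a call in 0.

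The replicate numbers were not taken to pair libraries: titles and source names give the WT libraries unlike numbers, and the correlation of same-numbered PC and VM libraries over 8100 genes was 0.21, 0.08 and 0.15 in WT and -0.01, 0.12 and 0.02 in KO. In WT each library correlated best with its own number. Counts were few for *Kcna5*, 44 over the 12 libraries, and for *Kcnv2* in WT PC replicate 2, with 5. *Kcna4*, with 249, also varied between libraries of one group, from 4.69 to 33.3 normalized counts in WT VMs.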
